A study of Mus musculus with 2 samples.

Results

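The miR-200 family, miR-203 and miR-205 are microRNAs (miRNAs) known from epithelial cells, and their 7 hairpin genes were followed here in the hindbrain of mouse embryos at embryonic day 12.5. The genes are Mir200b, Mir200a, Mir429, Mir200c, Mir141, Mir203 and Mir205. They were taken by gene symbol from a table of 1973 miRNA genes, by a rule that names symbols and sets no threshold on a measured value. The study sequenced short RNA from wild-type B6NCrl embryos of both sexes described as healthy, with no treatment named. Its only group holds 2 libraries, replicate 1 from a pool of 120 hindbrains and replicate 2 from a pool of 88, so no contrast between conditions exists. Each pool averages many embryos, and both pools carry the same donor label.

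In vertebrate epithelia the miR-200 family represses the transcription factors ZEB1 and ZEB2, and these proteins in turn bind the promoters of the miR-200 genes and repress them. This mutual repression is known for holding cells in an epithelial or a mesenchymal state. In mouse skin, miR-203 acts in keratinocytes that leave the basal layer and miR-205 acts in the basal progenitors. In the mouse nervous system the miR-200 family is best known from the olfactory epithelium.

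The mature sequences are shown because the family is grouped below both by cluster and by seed, the stretch that pairs with targets. Each line gives the arm usually taken as the active strand, from RefSeq on GRCm38.p6, 5′ to 3′, with the seed at bases 2 to 8 in capitals.
mmu-miR-200b-3p: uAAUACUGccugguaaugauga
mmu-miR-200c-3p: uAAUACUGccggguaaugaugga
mmu-miR-429-3p: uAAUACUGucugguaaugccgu
mmu-miR-200a-3p: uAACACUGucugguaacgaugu
mmu-miR-141-3p: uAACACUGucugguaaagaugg
mmu-miR-203-3p: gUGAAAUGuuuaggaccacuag
mmu-miR-205-5p: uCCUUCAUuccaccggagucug
miR-200b, miR-200c and miR-429 share the seed AAUACUG, while miR-200a and miR-141 share AACACUG. The seeds differ by 1 base, which is U4C when positions are counted from 1 at the 5′ end of miR-200b and the miR-200b base is given first. Outside the seed, miR-200b and miR-200c differ by U11G and A22G over 22 shared positions. miR-200a and miR-141 differ by C17A and U22G, and have an identical run of 16 bases. No other mouse miRNA in the RefSeq table carries either of these seeds, nor those of miR-203-3p and miR-205-5p. All 14 mature arms of the 7 genes, and the first 18 bases of each, occur in 1 hairpin of that table, so a full-length read can be told from those of the other listed hairpins. The count of a gene merges both of its arms, which are 21 to 23 bases long, so the counts of these genes are compared below without scaling to length.

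The family lies in a pair of clusters, each on the minus strand of mm10 and each under an annotated longer transcript. On chromosome 4 (chr4:156053905-156055750) the order of transcription is Mir200b, Mir200a, Mir429 over 1846 bases. Mir200b and Mir200a lie in an intron of the noncoding gene Gm13648, and Mir429 lies in an exon of it. All 3 also lie in an intron of Ttll10, the gene of a tubulin glycylase-like protein. On chromosome 6 (chr6:124717914-124718390) Mir200c comes before Mir141 over 477 bases, both in an intron of the noncoding gene Gm15884. Part of Mir141 also overlaps an exon of Gm29008. Mir203 (chr12:112130880-112130955, plus strand) lies in no other gene of GENCODE M21, 3320 bases past the end of Aspg, and RefSeq places the hairpin Gm51289 (Mir203b) within it on the opposite strand. Mir205 (chr1:193507463-193507530, minus strand) lies in an exon of the long noncoding gene 4631405K08Rik, which RefSeq names Mir205hg.

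The start of Gm13648 is shown because Mir200b, Mir200a and Mir429 share this transcript and their counts are set against each other below. It begins 4052 bases before the Mir200b hairpin. The window of 300 bases spans that start (GRCm38.p6, chr4:156059753-156060052, minus strand), with matches to the E-box CACCTG, the motif known for ZEB binding, in capitals.
Gm13648: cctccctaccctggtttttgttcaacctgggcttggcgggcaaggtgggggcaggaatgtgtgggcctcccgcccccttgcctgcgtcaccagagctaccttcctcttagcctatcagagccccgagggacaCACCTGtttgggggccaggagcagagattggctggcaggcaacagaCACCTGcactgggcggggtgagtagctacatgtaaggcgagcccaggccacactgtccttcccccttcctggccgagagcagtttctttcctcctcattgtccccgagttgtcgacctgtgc
The motif and its reverse complement CAGGTG were searched on the printed strand, which covers both strands. The window held 2 matches, beginning at positions -118 and -72 from the transcript start. Of 32851 RefSeq promoter windows of 300 bases, 20.2% held at least 1 match and 2.88% held at least 2. The window of Mir205hg held 1 match. No window was available for Gm15884, the transcript over Mir200c and Mir141, so the clusters were not compared on this motif. A match is a description of the letters and not a measured binding site.

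All 7 genes were detected in both libraries. Reads on the sense strand of miRNA genes came to 2764276 in replicate 1 and 3946444 in replicate 2, and levels are counts per 1000000 of these (CPM). A count of 0 allows a level of up to 1.09 CPM (3 counts) in replicate 1, or 0.760 CPM in replicate 2. The lowest level among the 7 genes was 136 CPM, for Mir141 in replicate 2. Together the 7 genes had 9660 CPM in replicate 1 and 6470 CPM in replicate 2, a share of 0.806% ± 0.226 (SD, n = 2). The miRNAs of the Neuronal list, which mark the labelled tissue, had 6245 and 6752 CPM, with counts for all 13 of its 14 members that are in the table. Reads that match several positions are in no gene (32.7% of all reads in replicate 1 and 33.4% in replicate 2), so miRNAs with several hairpin copies, such as miR-124 and miR-9, are counted only in part. This summed level is therefore not compared with that of the 7 genes. In the order of replicates 1 and 2, the counts behind these levels were 2393 and 1847 for Mir200b (ENSMUSG00000065549.2), 8155 and 5375 for Mir429 (ENSMUSG00000065427.1), and 5414 and 2945 for Mir200c (ENSMUSG00000065462.2). Mir141 (ENSMUSG00000065474.1) had 659 and 538, and Mir200a (ENSMUSG00000065400.1) had the fewest over both libraries. Mir203 (ENSMUSG00000065574.1) had 6163 and 8504 counts, and Mir205 (ENSMUSG00000065533.1) had 3514 and 5758. In bulk tissue, more cells that carry a miRNA and more of it in each cell cannot be told apart.

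Mir203 was the highest of the 7 by mean. Its level was 2230 CPM in replicate 1 and 2155 CPM in replicate 2, a mean of 2192 ± 52.8 (SD, n = 2), and held rank 70 by mean among the 1973 genes. Of those 1973 genes, 1238 had 0 counts in both libraries. Mir429, the last hairpin of the chromosome 4 cluster, had nearly the same mean but 2950 and 1362 CPM in replicates 1 and 2. Its values lay on both sides of those of Mir203. It was the first of the 7 in replicate 1 and the third in replicate 2.

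Mir205, the basal-layer miRNA of skin, had 1271 CPM in replicate 1 and 1459 CPM in replicate 2. Mir200c, from the chromosome 6 cluster, had 1959 and 746 CPM, so it was above Mir205 in replicate 1 and below it in replicate 2. Mir200b, the first hairpin on chromosome 4, had 866 and 468 CPM. These 3 genes held ranks 91, 92 and 122 by mean.

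The AACACUG-seed genes were the lowest of the family. Mir141 had 238 CPM in replicate 1 and 136 CPM in replicate 2. Mir200a had 146 and 143 CPM, with counts of 404 and 566. Their ranges overlapped, with Mir141 higher in replicate 1 and Mir200a higher in replicate 2 by 1.05-fold.

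Over the 21 pairs that the 7 genes form, 17 had the same order in both libraries and 15 had ranges that did not overlap. The 4 pairs that swapped were Mir429 with Mir203, Mir429 with Mir205, Mir200c with Mir205, and Mir141 with Mir200a. Among neighbours in the order of means, 1 of 6 was apart, which was Mir200b over Mir141, with ratios of 3.63 in replicate 1 and 3.43 in replicate 2.

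**Figure D1:**
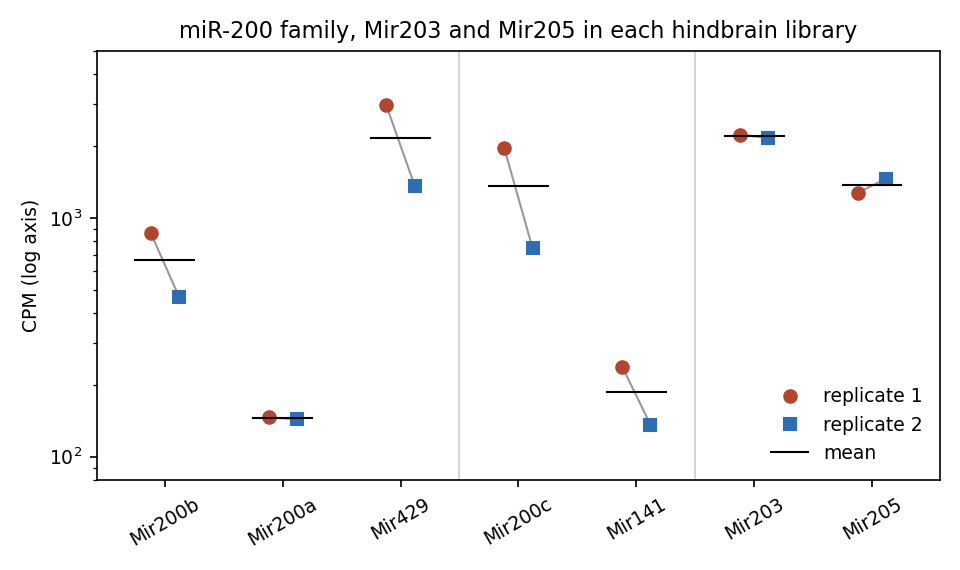
Levels of the 7 genes in each library, in CPM on a log axis, with replicate 1 as circles, replicate 2 as squares joined by a line, and their mean as a black bar; grey vertical lines divide the chromosome 4 cluster, the chromosome 6 cluster and the pair of single genes. Mir200a, Mir203 and Mir205 lie close together in the libraries, while Mir429 (2950 and 1362 CPM) and Mir200c (1959 and 746 CPM) are far apart.

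The chromosome 4 cluster gave more reads than the chromosome 6 cluster in both libraries. Mir200b, Mir200a and Mir429 together had 3962 CPM in replicate 1 and 1973 CPM in replicate 2, while Mir200c and Mir141 together had 2197 and 883 CPM. The ratio of the first cluster to the second was 1.80 in replicate 1, with a 95% interval of 1.75 to 1.86 by the exact Clopper-Pearson method, and 2.24 in replicate 2 (2.15 to 2.33). These intervals, and those below, cover counting error only. The direction was the same in each library, and the mean ratio was 2.02 ± 0.306 (SD, n = 2). An exact sign-flip test over 2 libraries gives a two-sided p of at least 0.5, so the clusters were not tested against each other. Mir429 exceeded Mir200c by 1.51-fold in replicate 1 and by 1.83-fold in replicate 2, while Mir200b was below Mir200c in both.

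Each cluster was dominated by 1 AAUACUG hairpin. In the chromosome 4 cluster Mir429 held 74.5% of the reads in replicate 1 and 69.0% in replicate 2. Mir200b held 21.8% and 23.7%, and Mir200a held 3.69% and 7.27%. In the chromosome 6 cluster Mir200c held 89.1% and 84.6%, with Mir141 giving the rest. Hairpins that lie on the same annotated transcript differed in reads, with Mir429 over Mir200a at 20.2 in replicate 1 and 9.50 in replicate 2. The Mir200c to Mir141 ratio was 8.22 in replicate 1 and 5.47 in replicate 2.

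By seed, the AAUACUG genes (Mir200b, Mir200c and Mir429) had 5774 CPM in replicate 1, against 2576 CPM in replicate 2. The AACACUG genes (Mir200a and Mir141) had 385 and 280 CPM. The AAUACUG class stood above the other by a factor of 15.0 in replicate 1 (interval 14.1 to 16.0) and 9.21 in replicate 2 (8.65 to 9.81). Adapter ligation can favour some sequences, so these factors compare reads and may differ from the ratio of the miRNAs themselves. The AAUACUG hairpin was the higher one in every pairing within a cluster, in both libraries.

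**Figure D2:**
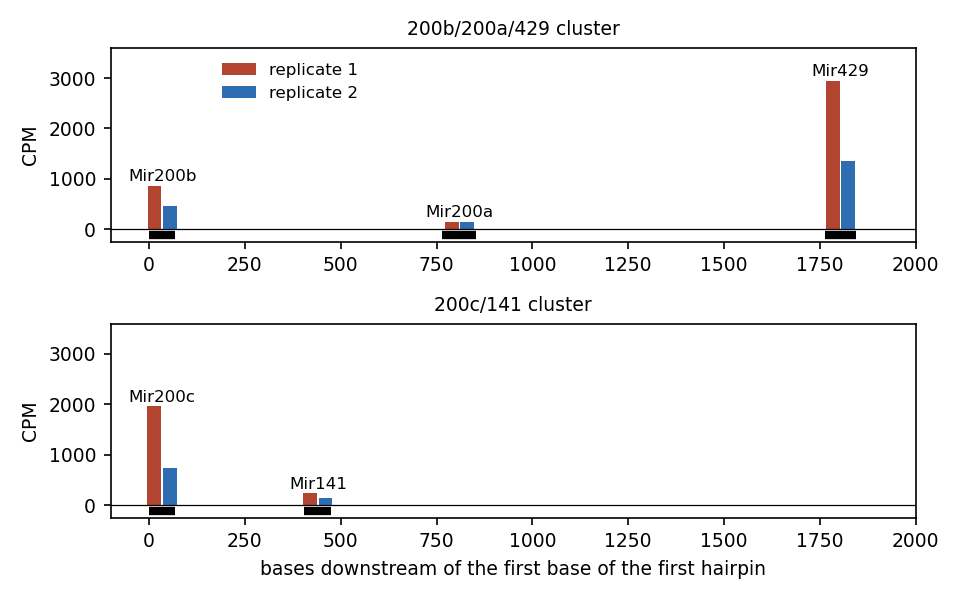
Level of each hairpin in CPM along the clusters, with replicate 1 left of replicate 2 at each hairpin and the hairpins drawn to scale as black bars; the horizontal axis is the distance in bases from the first hairpin base in the direction of transcription. Mir429, the last hairpin of its cluster, has the tallest bars, and Mir200a between Mir200b and Mir429 has the lowest of that cluster.

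**Figure D3:**
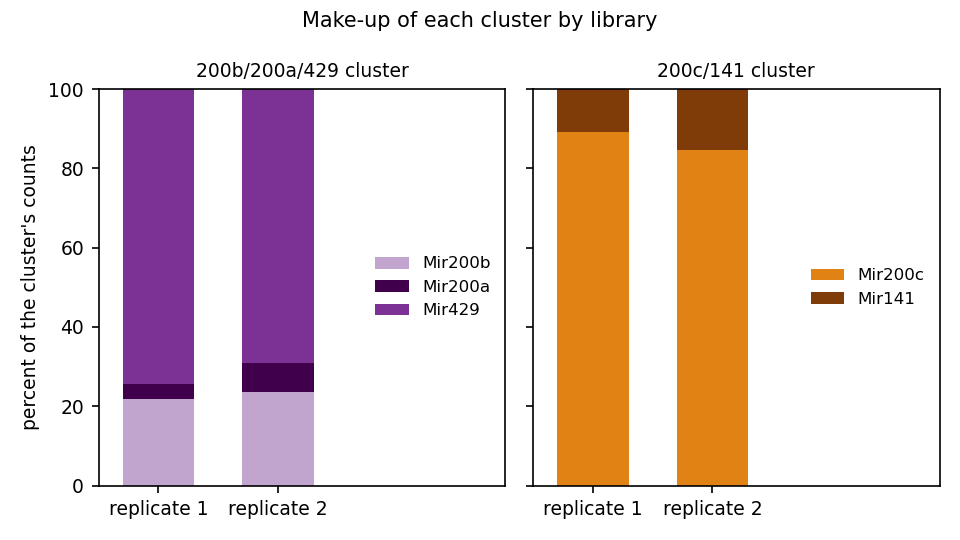
Percent of the reads of each cluster given by each hairpin, as stacked bars for replicate 1 and replicate 2. Mir429 holds 74.5% and 69.0% of its cluster and Mir200c 89.1% and 84.6% of its own, and the share of the AACACUG hairpin is larger in replicate 2 in both clusters.

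Among the 7 genes, the difference between the replicates lay mostly in the miR-200 family, which was higher in replicate 1, while Mir203 and Mir205 were close. The family had 6159 CPM in replicate 1 and 2856 CPM in replicate 2, a ratio of 2.16 (interval 2.11 to 2.21). Mir203 and Mir205 together had 3501 and 3614 CPM, a ratio of 0.969 (0.944 to 0.994). Within a library, where no scaling between libraries enters, the family exceeded Mir203 and Mir205 by 1.76-fold in replicate 1 (1.72 to 1.80) but stood at 0.790 of them in replicate 2 (0.771 to 0.810). These intervals are far apart, beyond the counting error. With 1 library on each side the comparison is between these libraries only.

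Mir200c and Mir429 were at least 2-fold higher in replicate 1. Mir200c differed by 2.62-fold (2.51 to 2.75) and Mir429 by 2.17-fold (2.09 to 2.24). Among the 393 genes that averaged 10 counts or more over the libraries, 4.58% were at least 2-fold apart in either direction, 1.53% (6 genes) with the higher value in replicate 1 and 3.05% (12 genes) in replicate 2. The other 4 of those 6 genes, chosen after their values were seen, were Mir6538, Mir3086, Mir1191 and Mir294, with at most 69 counts in a library. Of the 197 genes with at least the mean count of Mir200a, the lowest of the 7, 1.52% (3 genes) were 2-fold apart, namely Mir200c, Mir429 and, in the other direction, Mir206.

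Mir200b and Mir141 differed in the same direction by less. Mir200b was 1.85-fold higher in replicate 1 (1.74 to 1.97) and Mir141 was 1.75-fold higher (1.56 to 1.96). With a minimum of 1.5-fold, 4 of the 7 genes were higher in replicate 1 and none in replicate 2, against 8.14% and 7.38% of all tested genes. These 4 lie in the chromosome 4 and chromosome 6 clusters, where hairpins share an annotated transcript, so they are not 4 independent genes. Of the 393 genes, 3 had a larger difference in size than Mir200c, 15 than Mir429, 24 than Mir200b and 33 than Mir141.

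Mir200a was the exception in the family. Its level in replicate 1 was 1.02 times that in replicate 2 (0.895 to 1.16), although the hairpins on either side of it on chromosome 4 differed by 1.85-fold and 2.17-fold. TMM scaling of edgeR gave 0.996 for the same ratio, so its direction depended on the scaling. The ratio of Mir200b to Mir200a was 5.92 in replicate 1 (5.33 to 6.60) and 3.26 in replicate 2 (2.97 to 3.59), so the intervals of these neighbours did not overlap. Of the difference of 3303 CPM in the family, Mir429 gave 1588 CPM, Mir200c 1212 CPM, Mir200b 398 CPM, Mir141 102 CPM and Mir200a 2.73 CPM.

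The single genes showed little difference. The ratio of replicate 1 to replicate 2 was 1.03 for Mir203 (1.00 to 1.07) and 0.871 for Mir205 (0.835 to 0.909). Of the 393 tested genes, 351 had a larger difference than Mir203 and 227 a larger one than Mir205. The median log2 ratio of replicate 1 over replicate 2 was 0.81 over the 7 genes and 0.04 over all 393, where the median size without sign was 0.24.

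**Figure D4:**
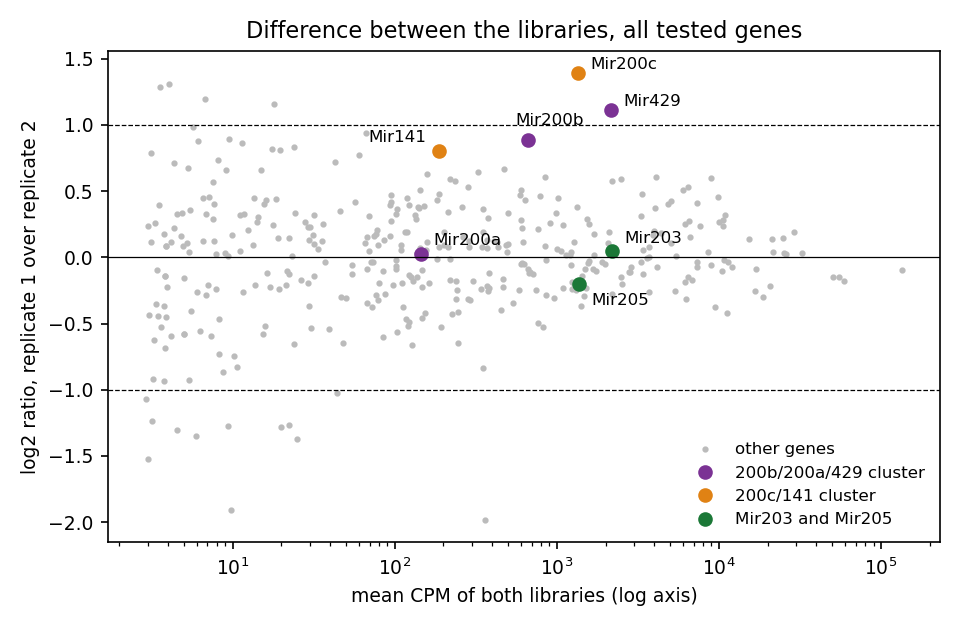
Log2 ratio of replicate 1 over replicate 2 against the mean level in CPM (log axis) for the 393 tested genes; grey points are other genes, coloured points are the 7 named ones, and dashed lines mark 2-fold. Mir200c and Mir429 lie above the upper dashed line in a range of levels where no other gene does, Mir200b and Mir141 lie just below it, and Mir200a, Mir203 and Mir205 lie near 0.

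miRNA lists of other cell types also differed between the libraries, and their part in the miR-200 difference was not tested. The sensory organ cluster (Mir183, Mir96 and Mir182) was the list most like the family in direction. It had 22128 CPM in replicate 1 and 17022 CPM in replicate 2, a ratio of 1.30, with all 3 genes higher in replicate 1 and none by 2-fold. Mir96 differed the most of these, by 1.51-fold.

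The list of other epithelial miRNAs, led by Mir375 of endocrine cells, had 1958 and 1610 CPM, a ratio of 1.22. Of its 8 members 7 were in the table and 5 were tested. None was 2-fold higher in replicate 1, and Mir184, chosen after its value was seen, was 2-fold lower there with 5 and 16 counts. Mir31 had 111 and 80.1 CPM and Mir375 had 1687 and 1380 CPM. The difference of Mir200c and Mir429 was therefore larger than that of any of these in the same direction.

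The skeletal and heart muscle list went the opposite way, with 177 CPM in replicate 1 and 647 CPM in replicate 2, a ratio of 0.273. Of its 6 tested members 4 were at least 2-fold lower in replicate 1 and 0 were at least 2-fold higher, and Mir206 made up most of its reads. Mir1a-1 and Mir133a-1 were at 0 in both libraries, but each has a second hairpin with the same main mature sequence, so these zeros do not show that miR-1 or miR-133a was absent. The smooth muscle and pericyte list had a ratio of 0.771, from Mir143 and Mir145a, with Mir145b at 0. The mesenchyme list had 12931 and 10846 CPM, a ratio of 1.19 that rests on Mir214. Its 3 miR-199 genes were higher in replicate 2, so its median log2 ratio was -0.51, the reverse of its sum. The list holds hairpin copies of miR-199a, which may be counted only in part, as with miR-124 and miR-9. The sum and the weight of Mir214 in it are therefore uncertain.

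For the remaining lists, summed levels gave ratios of 1.11 for the endothelium (Mir126a), 0.979 for the choroid plexus and pigment epithelium, 0.822 for multiciliated cells, 0.925 for the Neuronal list and 0.840 for erythroid cells. All 5 multiciliated genes were higher in replicate 2, with a median log2 ratio of -0.31 against 0.04 over all 393 tested genes. The erythroid median log2 ratio was 0.01, against a sum below 1. None of these lists had a gene at least 2-fold higher in replicate 1, and Mir449c, a multiciliated gene chosen after its value was seen, was 2-fold higher in replicate 2.

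**Figure D5:**
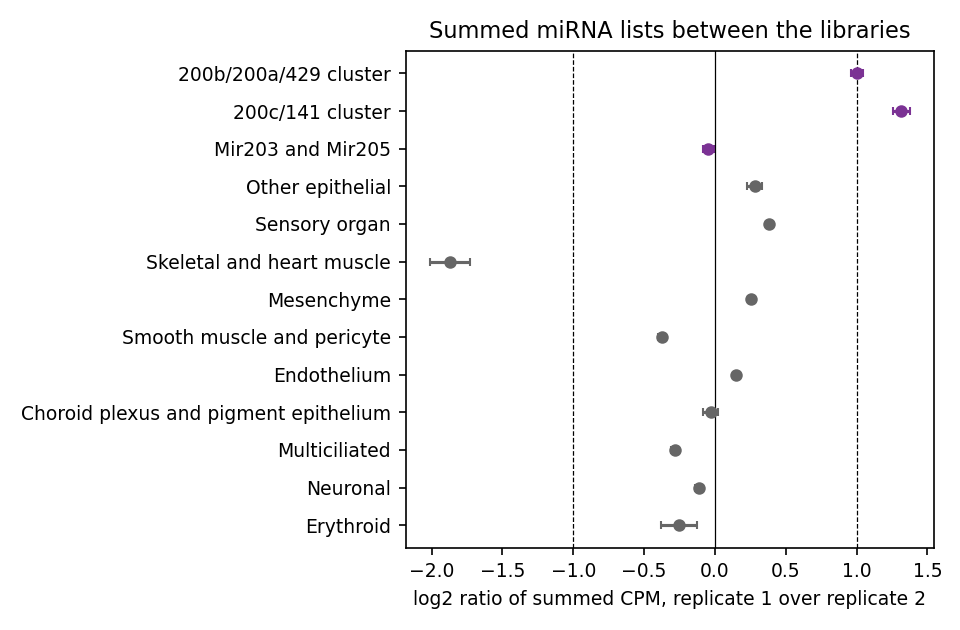
Log2 ratio of summed CPM, replicate 1 over replicate 2, for the miR-200 clusters, the pair of Mir203 and Mir205 and the 10 lists of other cell types, with bars for the exact 95% interval of counting error and dashed lines at 2-fold. The miR-200 clusters lie at the right end (ratios of 2.01 and 2.49) and the skeletal and heart muscle list at the left end (0.273).

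For each of the 7 genes, the gene with the most similar levels was found as the nearest in the plane of log2(CPM + 1) of both libraries. With 2 libraries this likeness is one of level and of replicate ratio only. Mir200a lay nearest to Mir701 (distance 0.046), Mir205 to Mir434 (0.095) and Mir203 to Mir125b-1 (0.12). Mir141 lay nearest to Mir1251 (0.24) and Mir200b to Mir501 (0.31). The genes with the largest replicate difference had more distant neighbours, with Mirlet7d at 0.40 from Mir429 and Mir15b at 0.74 from Mir200c. These distances come from the same levels as the replicate ratios, so they are not a separate result.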

How the data were processed

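The authors deposited, for each library, raw read counts per miRNA gene, on mm10 with GENCODE M4, per the notes deposited beside them. Which aligner, trimming and versions were used is not given in the sources used here. The count of a gene merges both arms of its hairpin, no molecular identifiers are named, and adapter ligation can favour some sequences. The column read as the strand of the gene was used, inferred from the layout and totals. Tally rows were left out. They held 15.7% unmapped, 32.7% multiply matching and 3.98% other reads of 5947846 in replicate 1, and 16.2%, 33.4% and 3.72% of 8656439 in replicate 2. Reads matching several positions are in no gene.

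Gene IDs were matched to GENCODE M21 on the same assembly (1894 of 1973 genes). CPM uses all gene rows. Ratios have exact Clopper-Pearson 95% intervals that cover counting error only, since amplified copies count as separate reads. A gene was called when its libraries, with 0.5 added to the counts, were 2-fold apart or more, provided it averaged 10 counts. With 1 group, no p-value was computed for the main values. All 7 genes were named, with the nearest gene to each and up to 3 per list. The symbol rule for the 7 genes uses no measured value, but these genes and the lists were proposed with earlier results of these data known. Sequences are RefSeq's (GRCm38.p6). Alternatives were both strands, other totals and scalings (edgeR 4.0.16, DESeq2 1.42.0), minimums, folds, pseudocounts and each library alone. Tools were R 4.3.3, Python 3.11.15, matplotlib 3.10.9, SciPy 1.17.1, pandas 2.3.3 and numpy 2.4.6.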

Additional observations from a re-analysis of the deposited data

Results flagged for a closer look

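Reads opposite to the strand of Mir203 came to 32 counts in replicate 1 and 60 counts in replicate 2, above the 3 counts that a count of 0 allows, and these are outside every value given for Mir203. They are 0.517% and 0.701% of the reads on both strands at this hairpin. Over all genes, the opposite strand held 67385 of 2831661 reads in replicate 1 and 94907 of 4041351 in replicate 2. That is a larger share than at Mir203, so the opposite-strand share at Mir203 is not high for these libraries. RefSeq places a second hairpin there on the minus strand, Gm51289 (synonym Mir203b, chr12:112130887-112130946, GRCm38.p6), which GENCODE M21 does not list under the name Mir203b. Its arms are shown, with the seed in capitals, because reads of either would fall in that column.
mmu-miR-203b-5p: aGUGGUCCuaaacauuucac
mmu-miR-203b-3p: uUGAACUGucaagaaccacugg
Which sequence gave these reads was not tested, since the tables hold no reads. At the other 6 genes the opposite strand had at most 2 counts in a library.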

How the results depend on the processing

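Of the summary values (share, cluster ratio, seed ratio, cluster replicate ratios, counts of calls), 33 recomputed values stayed within the spread or interval of the reported value, or within 1.5 times of a count, and 5 did not. The 33 include the values from 1 library at a time, which could not do otherwise. Each of 2 libraries lies within 1 SD of their mean, so those values say nothing about stability. Called genes at 2-fold remained Mir200c and Mir429 under every scaling, strand, pseudocount and count minimum tried, and with an exact binomial test added. With 2945 to 8155 counts a library, the pseudocounts and count minimums could not change these calls. The binomial test covers counting error only, so it could not either. Only the change of totals bears on them, with ratios of 2.10 to 2.17 for Mir429 and 2.55 to 2.62 for Mir200c. With 1.5-fold, 4 of the 7 genes and 61 of 393 genes were called. Without a count minimum the call took 191 of 735 genes, and for genes averaging 100 counts or more it took 4 of 275. With DESeq2 size factors the replicate ratio of the chromosome 4 cluster was 1.95, against 2.01 with library totals, so whether that sum reaches 2-fold depends on the scaling. No paired analysis was possible because the study has 1 group. With 1 library at a time, the cluster ratio was 1.80 to 2.24, the seed ratio 9.21 to 15.0 and the share 0.647% to 0.966%. Of the values for single genes 66 stayed within their spread or interval, again counting those from 1 library at a time, and 4 mean levels moved beyond their SD. Leaving Mir99a, the most abundant gene, out of the total raised the mean levels of all 7 genes, with Mir429 going from 2156 to 2487 CPM. The rise passed the SD only for the genes whose libraries lay close together. These were Mir200a at 167 CPM, Mir203 at 2534 CPM and Mir205 at 1578 CPM. The level of Mir200a also moved with both strands counted. The direction of the Mir200a replicate ratio (0.988 to 1.02) depended on the scaling. Depth limits Mir200a and Mir141 the most, with 404 to 659 counts a library.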
